A study of Arabidopsis thaliana with 10 samples.

Results

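A set of 14 genes was chosen by measured values, because their transcripts dipped on day 8, the first day of cool bright growth, in both lines of Arabidopsis thaliana studied. The rule took probe sets naming 1 gene whose day 8 value lay at least 1.5 log2 units below those of days 1, 2 and 12 in each line, and whose day 2 and day 1 values differed by less than 1 unit. Of 22746 probe sets 32 met these limits, a share of 0.141%. Of these 16 named 1 gene, 1 named several genes and 15 were not listed in the probe table. ATG8F and CCOAMT also met the limits and were left out by name, which leaves 14 members of 13513 probe sets naming 1 gene. Each member had 1 probe set, and all 14 are protein-coding loci in the reference gene table.

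The study measured total RNA from pooled leaf tissue of accession Columbia on 10 arrays. The Pap arrays hold plants with a 35S:PAP1 transgene, in which the broadly active 35S promoter of cauliflower mosaic virus drives the MYB factor PAP1, an activator of anthocyanin synthesis. The Hex arrays were read as the empty vector control, since the series names only these lines. Each line had 1 array on days 1, 2, 7, 8 and 12, and neither plant age nor the number of transgenic lines is given. Day 1 was taken, on the series text, as 22 °C and 440 µmol m-2 s-1. Days 2 and 7 were taken as the warm dim regime, 30 °C by day and 150 µmol m-2 s-1, which lasted 6 days. Days 8 and 12 were taken as 15 °C and 440 µmol m-2 s-1. Temperature and light changed together on entering and leaving the warm dim regime and cannot be told apart there. Plant age and sampling day changed with every step and cannot be told apart from the regime, and no line had a second array on any day.

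When leaves acclimated to warmth and shade are moved to cold and bright light, carbon fixation slows while light absorption rises, and many transcripts shift within hours. Such shifts can be transient, because cold acclimation over the following days restores part of the metabolism. Transcripts of many leaf genes also follow the time of day, and the labels give no hour of sampling. Of the 14 members 4 carry a gene name in the reference table (OSM34, RING1, BGLU16 and CYP71B24). The other 10 are listed by locus alone, so no function is given to them here.

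A few arrays stood apart in quality measures. The median of the poly-A controls, which are bacterial RNAs added ahead of labelling, was 3.25 on both day 7 arrays and 4.4 to 5.6 on the arrays of other days. On the Pap day 2 array 25S ribosomal RNA read 9.7, against 4.7 to 6.7 elsewhere, and the 5′ minus 3′ difference of actin was -4.3, against -3.7 to -2.9. The 2 lines correlated at 0.973 on day 7 and at 0.986 to 0.991 on the other days. The root genes PYK10 and EXPA7 read 4.1 to 5.1 and 3.5 to 3.9, and the seed coat gene BAN 3.3 to 3.7. None of the 4 planned leaf markers had a probe set naming it alone. The PAP1 locus had 0 such probe sets, so the transgene's own transcript was not checked. DFR, the anthocyanin enzyme dihydroflavonol reductase, read 3.8 to 8.0 in Hex and 10.7 to 12.6 in Pap.

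OSM34 (AT4G11650), an osmotin-like protein of the thaumatin family that is related to pathogenesis-related proteins, had the deepest dip. It read 8.5, 8.5, 6.5, 4.2 and 7.6 in Hex on days 1, 2, 7, 8 and 12. In Pap it read 6.2, 6.7, 4.2, 3.3 and 6.4 on the same days. Day 8 was the lowest day in both lines, and day 7 already lay below days 1, 2 and 12. The dip from the lowest of days 1, 2 and 12 was 3.4 log2 units in Hex and 2.9 in Pap, an average of 8.88-fold. The Pap day 8 value lies under 3.9, the highest value of EXPA7 and BAN, so that dip is a lower bound. It was the only one of 140 member values at or under this level. PYK10 read higher than both and was not used for the limit. Up to its highest value of 5.1 lay 11 member values of 5 genes, all on day 8 except that of OSM34 in Pap on day 7. Were that level background, the dips of OSM34, AT2G34620, AT3G09020, AT3G19850 and CYP71B24 would all be lower bounds. In pooled leaves, fewer cells of a type and less RNA per cell cannot be told apart, for this and every member.

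RING1 (AT5G10380), a RING-finger ubiquitin ligase linked to programmed cell death, had the shallowest average dip. It read 11.4, 11.2, 10.8, 9.7 and 11.7 in Hex and 11.1, 11.1, 10.2, 9.6 and 11.4 in Pap, in day order. Its dip was 1.5 in each line, or 2.83-fold, exactly at the limit of the rule. Both lines stood higher on day 12 than on day 1, by 0.3 each.

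BGLU16 (AT3G60130) belongs to the beta-glucosidases, enzymes that remove glucose from conjugated metabolites. It read 8.0, 8.7, 8.2, 5.8 and 8.1 in Hex and 8.2, 8.6, 7.3, 6.1 and 8.0 in Pap. The lines lay within 0.3 of each other on every day but day 7, when Pap was lower by 0.9. From the lowest of days 1, 2 and 12 it dipped by 2.2 in Hex and 1.9 in Pap. The rest of its family, taken by symbol after the members were known, mostly did not share the pattern. Of 20 BGLU genes measured, 13 rose above 3.9 on some array, 6 had day 8 as the lowest of days 1, 2, 8 and 12 in both lines, and BGLU16 alone reached a dip of 1.5. Over all probe sets 14.8% had day 8 as the lowest of these days in both lines, and 0.356% reached the dip when day 2 was not limited. BGLU44, 1 of those 6, read 10.9 or more on days 1, 2 and 12 and 9.9 on day 8 in Hex, and 11.2 or more and 10.6 in Pap.

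CYP71B24 (AT3G26230) encodes a cytochrome P450, one of the heme enzymes that oxidise small molecules in plant secondary metabolism. It read 6.8, 7.1, 6.8, 4.8 and 7.2 in Hex and 6.9, 6.9, 6.2, 4.9 and 7.2 in Pap. The dip was 2.0 log2 units in each line, a 4.0-fold drop, and the day 12 value equalled 7.2 in both. CYP71B22 and CYP71B23 lie beside it on chromosome 3, in the order CYP71B22, CYP71B23, 1 other protein-coding gene and CYP71B24. CYP71B22 read 7.5, 7.3, 7.1, 4.8 and 6.3 in Hex and 7.4, 7.3, 5.9, 5.2 and 5.8 in Pap. It was lowest on day 8 in both lines, but had regained only 0.6 by day 12 in Pap, which keeps it outside the rule. CYP71B23 read 7.6, 7.8, 7.5, 6.6 and 8.8 in Hex and 7.7, 7.3, 6.7, 6.2 and 8.8 in Pap. It was also lowest on day 8, with a smallest dip of 1.0, and its day 12 value exceeded day 1 by more than 1 unit in both lines. Other CYP71B genes with nearby locus numbers that rose above 3.9 did not share the dip. CYP71B26 (AT3G26290) read 8.8 on day 8 in Hex, its highest value there, and 8.4 in Pap. CYP71B34, CYP71B35 and CYP71B36 (AT3G26300 to AT3G26320) had smallest dips of -0.4, -0.9 and -0.6, so day 8 was not their lowest day in both lines. Of 19 CYP71B genes measured, 11 rose above 3.9 on some array, and 5 had day 8 as the lowest of days 1, 2, 8 and 12 in both lines, against 14.8% of all probe sets. A dip of at least 1 unit was reached by 2 of them, against 1.28%, and of at least 1.5 by 1, against 0.356%. The coding sequences of such P450 genes are alike, and whether one gene's transcript bound another's probes was not tested.

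**Figure D1:**
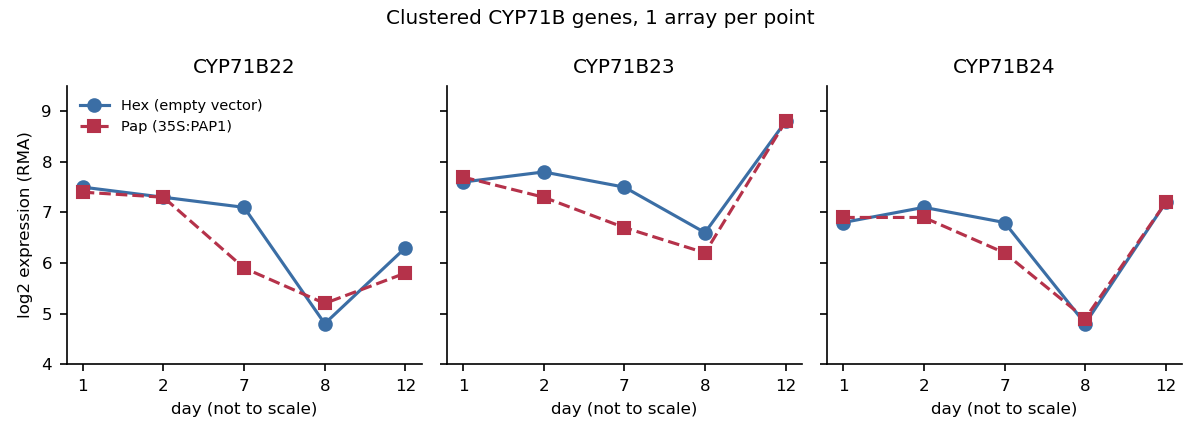
Log2 expression of 3 clustered CYP71B genes (vertical axis) on days 1, 2, 7, 8 and 12 (horizontal axis, not to scale), with 1 array per point, Hex as circles and Pap as squares. All 3 were lowest on day 8 in both lines, and CYP71B22 differed in its Pap day 12 value of 5.8, against 7.4 on day 1. CYP71B26, CYP71B34, CYP71B35 and CYP71B36, with nearby locus numbers, did not share the dip and are not shown.

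The next deepest dips after OSM34 belonged to loci without a name, among them AT1G23390 (average dip 2.15), which is described further below. AT2G34620 read 8.3, 8.4, 7.9, 5.1 and 7.4 in Hex and 7.9, 8.4, 7.1, 5.1 and 8.0 in Pap. Its average dip was 2.55 log2 units, or 5.86-fold, and both lines reached the same day 8 value. AT1G13990 read 9.1, 9.8, 9.5, 6.6 and 9.2 in Hex and 9.1, 9.7, 9.0, 7.2 and 9.2 in Pap. Both lines were back at their day 1 level on day 12, within 0.1. AT1G15740 read 8.4, 9.0, 8.8, 6.0 and 8.7 in Hex and 8.5, 8.5, 8.1, 6.7 and 8.5 in Pap. AT1G56220 read 11.0, 11.1, 10.9, 8.6 and 10.7 in Hex and 10.8, 10.8, 10.4, 8.7 and 10.8 in Pap. Both of these had an average dip of 2.1, and AT1G15740 dipped less far in Pap (1.8) than in Hex (2.4).

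In 3 further loci the lines took different courses before day 8. AT1G23390 read 9.2, 9.2, 8.5, 6.9 and 8.9 in Hex and 8.8, 9.2, 6.7, 6.5 and 9.0 in Pap. In Pap most of the drop had thus occurred by day 7, and day 8 added -0.2, whereas the step from day 7 to day 8 was -1.6 in Hex. AT3G26510 read 9.0, 9.4, 9.4, 6.5 and 8.1 in Hex and 9.2, 9.8, 7.5, 7.0 and 8.9 in Pap. Its step from day 7 to day 8 was -2.9 in Hex and -0.5 in Pap. AT3G09020 read 6.3, 6.4, 7.4, 4.7 and 7.8 in Hex and 6.3, 6.8, 5.7, 4.8 and 7.1 in Pap. On day 7 it stood above days 1 and 2 in Hex and below them in Pap, and on day 12 it ended above day 1 in both lines, by 1.5 and 0.8.

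The last members had modest dips at varied levels. AT3G19850 read 7.0, 6.9, 7.0, 4.3 and 5.9 in Hex and 6.6, 7.5, 6.9, 4.7 and 6.9 in Pap. On day 12 it was still 1.1 below day 1 in Hex, further than any other member in either line. AT2G22660 read 8.8, 9.1, 9.3, 7.1 and 8.8 in Hex and 8.8, 9.3, 8.8, 7.0 and 8.6 in Pap. AT1G25275 read 11.0, 11.5, 11.0, 9.2 and 10.8 in Hex and 10.6, 11.3, 10.2, 9.0 and 10.7 in Pap. These last 2 dipped by 1.65 and 1.6 on average and ended within 0.2 of day 1 in both lines.

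**Figure D2:**
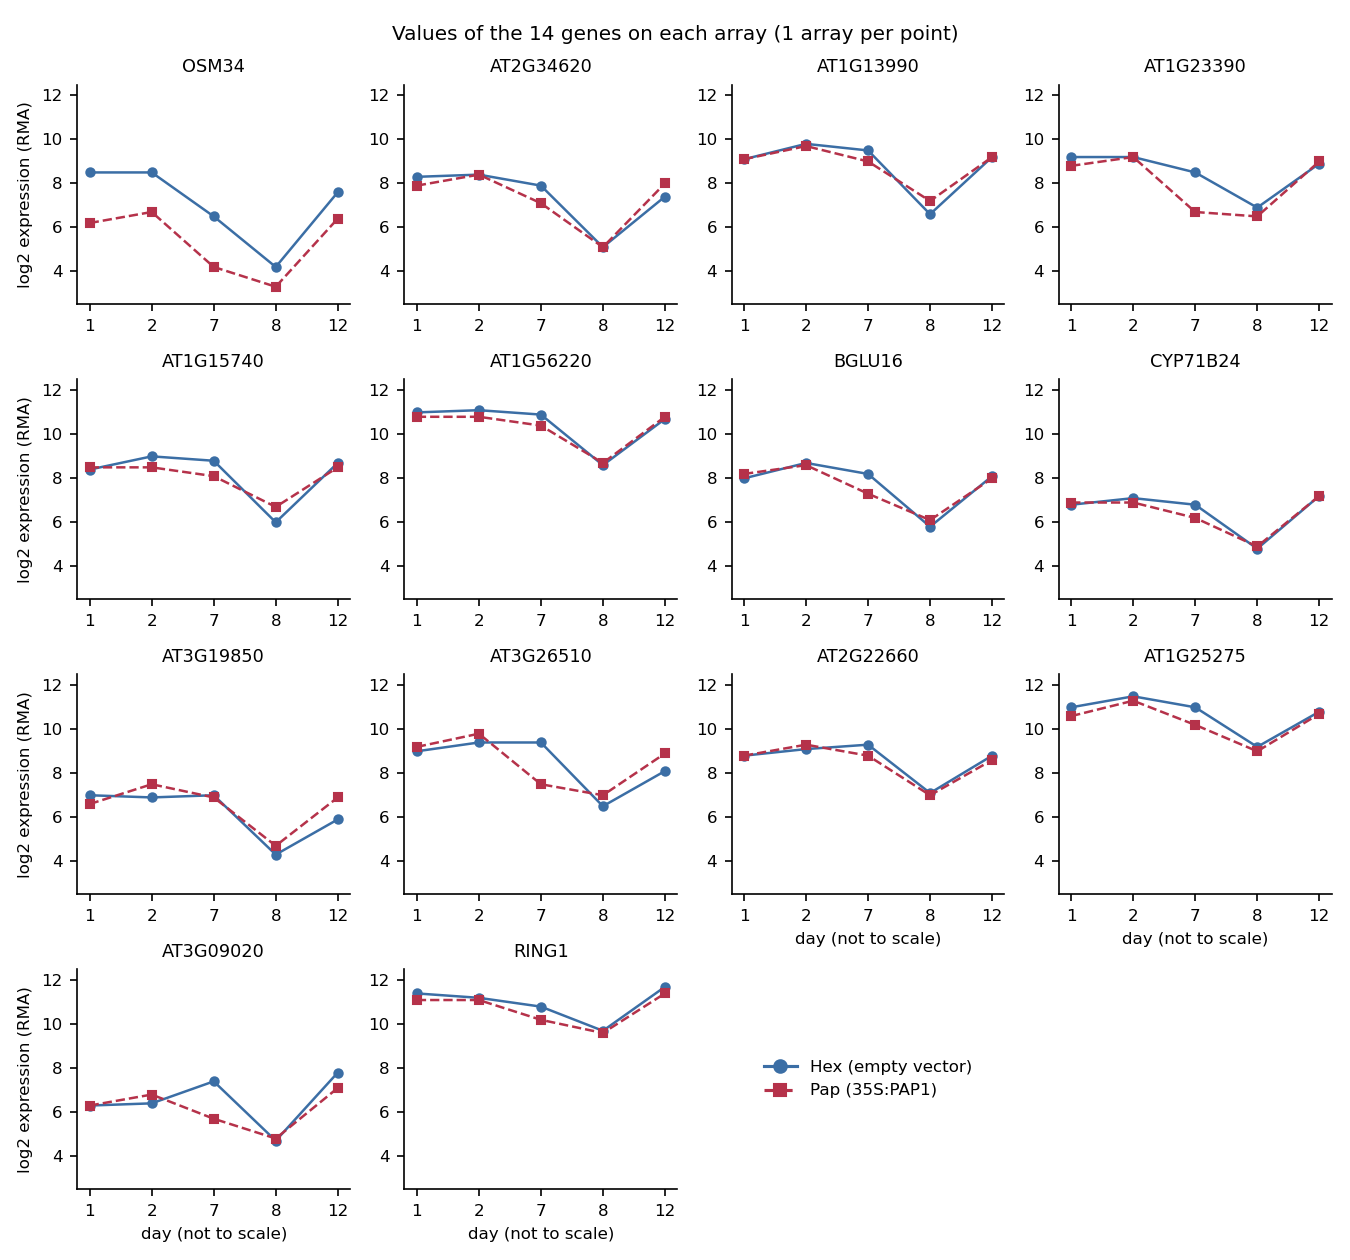
Log2 expression (vertical axis, the same range in every panel) of the 14 genes on days 1, 2, 7, 8 and 12 (horizontal axis, not to scale), ordered by depth of the dip, with 1 array per point. Day 8 is the lowest point of both lines in every panel, which the rule requires for days 1, 2 and 12 and not for day 7.

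Across the 14 members the dip from the lowest of days 1, 2 and 12 ranged from 1.5 to 3.4 in Hex (median 2.0) and from 1.5 to 2.9 in Pap (median 1.9). These values chose the members and are a description. By day 12 the members stood between -1.1 and 1.5 from their day 1 level in Hex (median -0.1) and between -0.3 and 0.8 in Pap (median 0.1). Over all probe sets these medians were 0 in both lines. At the limit of 1.5 lay 2 members, AT3G09020 and RING1. Just outside, at 1.4, lay 5 loci: AT1G53560, AT2G17710, AT3G16670, AT4G14270 and AT4G19860. Of these AT3G16670 differed in course, since day 7 lay below day 8 in both lines. It read 6.6 and 6.8 on these days in Hex, and 5.8 and 6.4 in Pap.

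Day 7, the end of the warm dim period, took no part in the rule. Day 8 lay below day 7 for all 14 members in both lines, although the day 8 value itself was used. In Hex, day 7 was close to the level of days 1 and 2. The difference of day 7 from the mean of days 1 and 2 had a median of -0.15 over the members, from -2.0 (OSM34) to 1.05 (AT3G09020), with 8 members below 0 and 6 above. In Pap all 14 lay below 0, with a median of -0.80 and a range from -2.3 (AT1G23390) to -0.15 (AT3G19850). A drop of at least 1 unit was reached by 1 member in Hex, OSM34, against 1.35% of all probe sets. In Pap it was reached by 5 members, against 2.13% of all probe sets. They were OSM34, AT1G23390, AT3G26510, BGLU16 and AT2G34620. Days 1 and 2 are days on which the rule asks for high values, so these shifts carry no test.

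**Figure D3:**
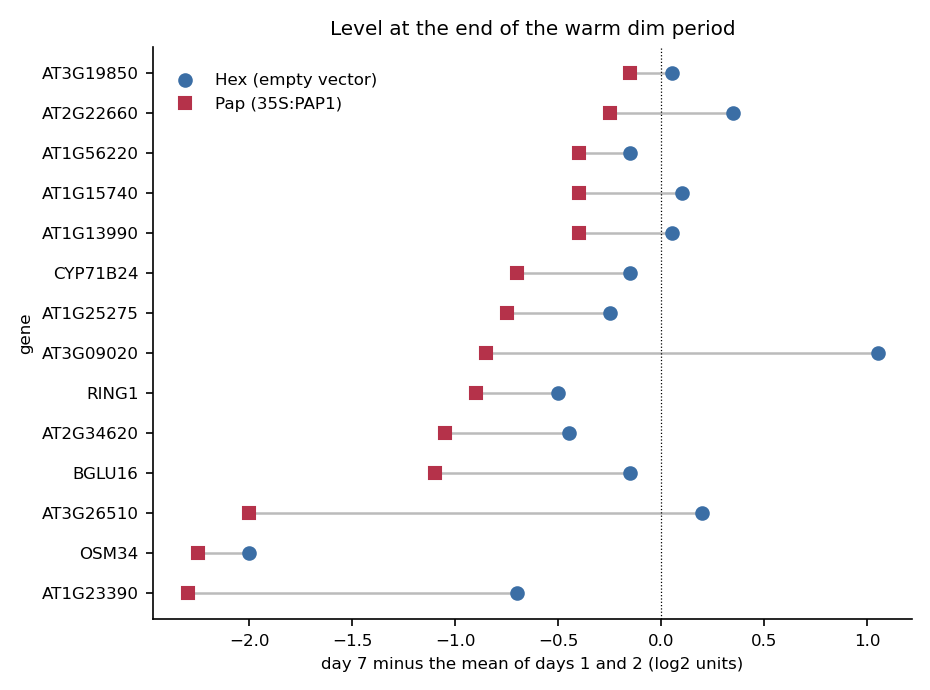
Day 7 minus the mean of days 1 and 2 in log2 units (horizontal axis) for each of the 14 genes (vertical axis), with Hex as circles and Pap as squares, each from 1 array on day 7. Every Pap point lies left of its Hex point and below 0, and the gaps are widest for AT3G26510, AT3G09020 and AT1G23390.

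The genotype effect asks whether a member differed by line over all 5 days, and the rule did not use the difference between lines. Its SE draws on how far that difference varied over the 5 days, which are different conditions. It is limma's moderated SE, in which a probe set's own variance is drawn towards that of all probe sets. OSM34 was the member with the largest difference. It lay lower in Pap on all 5 days, by -2.3, -1.8, -2.3, -0.9 and -1.2 in day order. The day 8 difference, and through it the mean, rests on a Pap value under 3.9 and is limited by it as the dip is. The lines' ranges across days overlapped, from 4.2 to 8.5 in Hex and from 3.3 to 6.7 in Pap, since the day moved both. Its mean difference was -1.7 ± 0.22 log2 units (SE, limma with day as a block, adjusted p = 0.0653), above the threshold of 0.05 and so not called. The adjusted p was 0.0410 without the dimmest 25% of probe sets and 0.0377 with a trended, robust variance, and 0.107 to 0.440 when each day in turn was left out. In the model without the day block it was 1. Without day 8 the difference was -1.9 (limma adjusted p = 0.107). Without day 2, which holds the Pap array with high ribosomal RNA, the difference was -1.68. AT1G23390 differed by -0.5 ± 0.26 (limma adjusted p = 0.720), and -0.175 without day 7. AT3G09020 gave -0.38 ± 0.28 (limma adjusted p = 0.797), -0.05 without day 7 and -0.575 without day 2.

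Of the 14 members 0 were called in the genotype effect by limma, where 18 of 22746 probe sets (0.0791%) were called. At an unadjusted p under 0.05 there were 3 members, OSM34, AT1G25275 and RING1, against 6.98% of all probe sets. AT1G25275 differed by -0.34 ± 0.12 and RING1 by -0.28 ± 0.10, with limma adjusted p = 0.635 and 0.664. The median difference over the members was -0.12, and 0.02 over all probe sets. Leaving out day 7 brought the members' median to -0.01. The interaction of line with regime, days 2 and 7 against days 1, 8 and 12, called 0 members and 0 probe sets (0%) by limma. At an unadjusted p under 0.05 it held 2 members, AT1G15740 and CYP71B24, against 9.02% of all probe sets. With day 2 or day 7 left out, the warm dim side rests on 1 array per line, so only effect sizes are given. Without day 2 the fit compares day 7 with days 1, 8 and 12, which the rule limited in both lines. The members' median was -0.47 as fitted, -0.77 without day 2 and -0.08 without day 7.

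Taken as a median over the members, the difference between the lines was furthest from 0 on day 7, from 1 array per line. OSM34 was an exception, with -2.3 on day 1 as on day 7. The median of Pap minus Hex over the 14 members was -0.1, -0.1, -0.75, 0.1 and -0.05 on days 1, 2, 7, 8 and 12. For the 94 genes that a dip limit of 1 unit would admit, the day 7 median was -0.30, with 77 lower in Pap. The members lower in Pap numbered 7 on day 1, 8 on day 2, 5 on day 8 and 7 on day 12, where 37.1%, 40.6%, 40.9% and 33.8% of all probe sets were lower. On day 7 all 14 members were lower in Pap, where 41.1% of all probe sets were. Of probe sets above 3.9 on every array, 36.2% were lower. By 0.5 or more 13 members were lower, against 10.7% of all probe sets, with AT3G19850 (-0.1) the exception. By 1 or more 4 members were lower, against 3.83%. These were OSM34 (-2.3), AT3G26510 (-1.9), AT1G23390 (-1.8) and AT3G09020 (-1.7). For 12 members day 7 had the lowest line difference of the 5 days outright, against 20.3% of all probe sets. The rule limited days 1, 2, 8 and 12 in both lines and left day 7 free. Members and all probe sets are thus not compared on equal terms, and the 20.3% is no chance rate for the members.

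**Figure D4:**
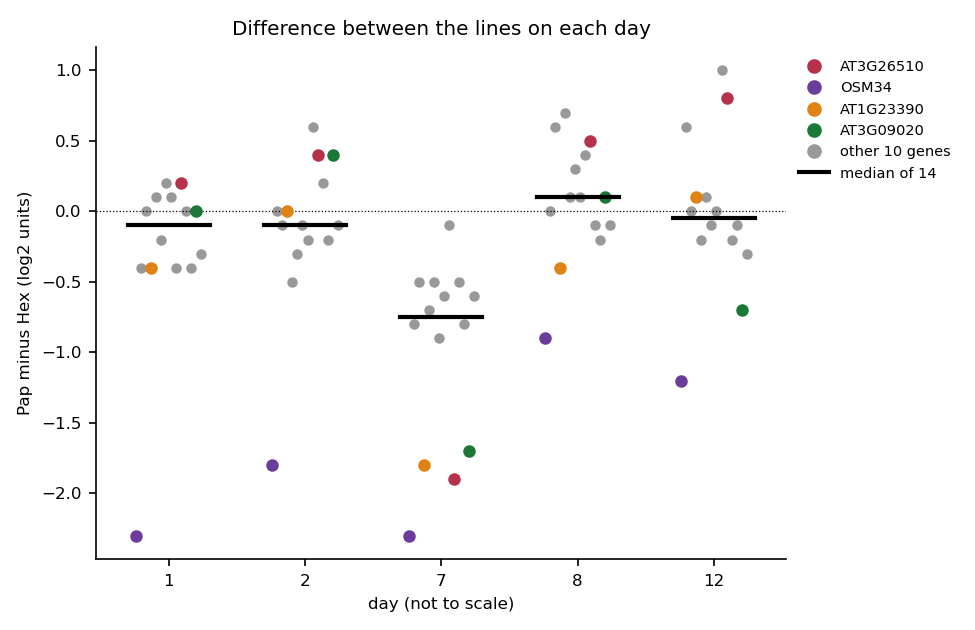
Pap minus Hex in log2 units (vertical axis) on days 1, 2, 7, 8 and 12 (horizontal axis, not to scale) for the 14 genes, each point from 1 array per line, with the median as a bar. On day 7 all points lie below 0 around a median of -0.75, while on the other days the medians lie between -0.1 and 0.1 and OSM34 stays low.

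The day 7 difference was set against the mean difference of the other 4 days in a fit across all probe sets, a comparison chosen after these values were seen. It called 0 of 14 members and 0 of 22746 probe sets (0%) by limma. At an unadjusted p under 0.05 there were 6 members, against 10.4% of all probe sets. The other 4 days are those that the rule limited in both lines, so that share is no like-for-like measure for the members. AT3G26510 had the largest value, -2.38 ± 0.26 (SE, limma adjusted p = 0.270). With a trended, robust variance its adjusted p was 0.0365, and it was then the 1 probe set called. In the other alternatives it ranged from 0.213 to 0.540, and without day 2 the value was -2.40. AT3G09020 gave -1.65 ± 0.41 and AT1G23390 -1.63 ± 0.27 (limma adjusted p = 0.361 and 0.306). The median over the members was -0.675, and 0 over all probe sets. Each of these values rests on 1 Pap and 1 Hex array of day 7, both with low poly-A controls, and their part in the result was not tested.

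In the mirror-image pattern day 8 lay at least 1.5 above days 1, 2 and 12 in both lines, with the same limit on day 2. It was met by 69 probe sets (0.303%), of which 45 named 1 gene, where 32 probe sets met the dip limits. On day 7 the median of Pap minus Hex over all 69 was 0.4, with 52 higher and 15 lower in Pap. That is opposite in sign to the 14 dipping genes, which unlike the 69 were kept to probe sets naming 1 gene. On days 1, 2, 8 and 12 that median was 0, 0.1, -0.2 and 0. Over all probe sets the day 7 median was 0, with 41.1% lower in Pap. Over those above 3.9 on every array it was 0.1, with 36.2% lower. The mirror rule also limited days 1, 2, 8 and 12 and left day 7 free, so these shares are no chance rate for the 69. Over all 22746 probe sets the day 7 line difference correlated at r = 0.367 with the change from day 12 to day 8, averaged over lines. The same correlation was 0.046 for the line difference of day 1 and 0.22 for that of day 2. The arrays in each pair of measures are different ones, but probe sets are not independent and share the normalisation. The step from day 7 to day 8 had a median of -1.25 in Pap and -2.35 in Hex over the members. It uses the day 8 values that chose them and the same day 7 arrays as the line difference, so it is a description, and in OSM34 the Pap step ends under 3.9.

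Genes of related processes were read from 9 lists by locus, of which few members had a probe set naming 1 gene (16 of 122). None of the 16 was a member of the dipping set, which holds 14 of 13513 probe sets naming 1 gene. At that share a list of this size is not likely to hold a member. LHCB4.1 and LHCB4.2 were left out by name and could not be members. The antenna gene LHCB4.2 of photosystem II, excluded by name, read 12.9 on day 7 and 9.6 on day 8 in Hex, and 12.4 and 9.7 in Pap. Its day 8 dip of at least 2.2 met the limit, but day 2 exceeded day 1 by 1.1 in Pap. LHCB4.1 and PORB, a protochlorophyllide reductase of chlorophyll synthesis, were also lowest on day 8 of days 1, 2, 8 and 12, with smallest dips of 1.0 and 0.9. LHCB4.3 went another way, from 7.7 on day 7 to 8.9 on day 8 in Hex and from 6.7 to 9.7 in Pap. Of the 3 auxin-related genes measured, GH3.3 and IAA29 had smallest dips of 0.2, whereas WES1 read 5.3 on day 1 and 5.5 on day 8 in Hex. Of 5 cold-response genes measured, 0 were lowest on day 8 of days 1, 2, 8 and 12 in both lines, against 14.8% of all probe sets. COR15A, COR15B and LTI30 read 13.3, 12.2 and 10.8 on day 8 in Hex, and each was highest on that day or tied for it. COR47 was highest on day 7 in both lines, at 12.3 in Hex and 12.1 in Pap, and COR27 read 8.3 on day 8 in Hex, its lowest there, and 9.0 in Pap. GI, a clock gene that peaks late in the day, read 9.5 to 10.2 over all arrays. The sugar starvation, nitrate and sulfate, and defence lists had 0 usable genes.

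The 2 genes left out by name differed in how the lines compared. ATG8F, an autophagy protein that is joined to membrane lipids, read 9.9, 10.4, 10.1, 7.8 and 9.8 in Hex and 9.7, 10.6, 9.3, 7.9 and 9.8 in Pap, furthest apart on day 7. CCOAMT, a caffeoyl-CoA methyltransferase, read 6.8, 7.3, 6.6, 4.6 and 8.2 in Hex and 6.1, 6.2, 5.6, 3.8 and 7.6 in Pap. It was lower in Pap on every day, and furthest apart on day 2. Of the 14 members 5 lie on chromosome 1, 2 on chromosome 2, 5 on chromosome 3 and 1 each on chromosomes 4 and 5. The closest pair, CYP71B24 and AT3G26510, has 31 protein-coding genes between them.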

How the data were processed

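The authors deposited RMA output on the log2 scale, 1 value per probe set with 1 decimal. The tool is named in the submitters' processing notes, whereas its version is not given in the sources used here. Array medians lay between 5.5 and 5.7. Arrays have no read depth, and their number limits the precision. From the 22810 probe sets, 64 controls of the array were removed. A probe table named 1 gene for 13513 of the rest, of which 13436 matched the TAIR10.1 reference gene table by Entrez identifier. All array columns were used (0 left over). RMA gives no detection call, so 3.9, the highest value of EXPA7 and BAN, served as a dim limit.

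The fits used limma 3.58.1 (R 4.3.3) on all 22746 probe sets, with Benjamini-Hochberg adjustment over all of them and a threshold of 0.05. Every SE and p-value of these fits uses limma's moderated variance, not the spread of the probe set alone. The same fits were also run on simulated data, whose results are not given here. Arrays of the 2 lines were paired by the day in their label, and the deviations from the mean of a line correlated between same-day arrays at 0.52, 0.77, 0.49, 0.84 and 0.75 in day order. No label names separate plants as replicates, so a p-value covers only the spread between these arrays. Except in the fit without the day block, that is the spread of the line difference over days of different conditions. Dependence on condition and technical spread cannot be told apart in it. The members, the gene lists, the models and the alternatives were chosen with earlier results of these data known. Every member may be named, and other genes were taken from the lists, from 2 families by symbol, and from just outside the limits. Two-sided tests were used. Sequences are not used here.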

Additional observations from a re-analysis of the deposited data

Results flagged for a closer look

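Pap minus Hex was examined over the 5 days for each member and for their median, 15 sets of values in all, and 3 had 1 day far from the others. The gap of that day to its nearest neighbour, over the whole range, passed Dixon's critical value of 0.71. Chance passes this value in about 1 of 20 sets that were not chosen by their values. The rule limited every day but day 7 in both lines, so 1 of 20 is no chance rate for the members or their median. The share of all probe sets that pass the value was not tested. AT3G26510 had -1.9 on day 7, with a gap of 0.778 of the range. AT1G23390 had -1.8 on day 7, with a gap of 0.737. The median over the members, -0.75 on day 7, had a gap of 0.765 and is not independent of the other two. The 5 days are different conditions and not replicates of one.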

How the results depend on the processing

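Of 114 alternative values 93 were labelled the same, 18 moved, 3 stronger and 0 reversed. Gene effects were the same if they kept their direction and their side of the threshold, and medians if they shifted by less than 0.17. Counts were the same if equal or within a set ratio, and a count cannot reverse. Many of the unchanged counts compare 0 called with 0 called, so the 93 is no measure of robustness. The probe sets called for genotype, 18 as reported, numbered 31 without the dimmest 25% of probe sets (fewer tested) and 8 with no replicate block, and 0 to 13 when each day was left out. Members called for genotype were 1 (OSM34) without the dimmest 25% and 1 with a trended, robust variance, and 0 in the other alternatives, the fit without the day block included. For day 7 against the other days a trended, robust variance called 1 probe set, a member (AT3G26510). The 14 members became 94 at a dip of 1, 5 at a dip of 2, and 40 with no limit on day 2. With arrays centred on their medians they were 12, without AT3G09020 and RING1. The day 7 shift from days 1 and 2 was -0.45 in Hex and -1.05 in Pap for members at a dip of 2, -0.40 in Pap at a dip of 1, and -1.0 in Pap from day 2 alone. The day 7 line difference was -0.30 at a dip of 1, with 77 of 94 lower in Pap. The cause of these changes was not tested. Signal near 3.9 limits OSM34 on day 8 in Pap.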
